A study of Mus musculus with 8 samples.

Results

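Untreated macrophages grown from mouse bone marrow are described here through their gene expression, as the state from which the study's stimulations set out. They were the 2 arrays of 8 whose titles call them untreated, and no expression value chose them. The series examined bone marrow derived macrophages (BMDMs) of C57BL/6 mice, grown for 7 days with macrophage colony-stimulating factor (M-CSF), in 4 groups of 2 arrays. The other groups were exposed over 24 h to ATRA (all-trans retinoic acid at 1 µM), to OMsup (conditioned medium from cultured omentum) or to ATRA+OMsup. Those arrays enter no deposited intensity or detection call below, and were used only in normalizing the 8 arrays together for ranks, correlations and log2 differences. That exposure took place in serum-free medium, and whether untreated cells were changed to it is not stated in the labels. They also do not say whether the 2 replicates came from separate cultures or animals, so the spread between the 2 arrays may be technical. All groups share the strain and the M-CSF culture, and neither the substrain nor the sex of the mice is given.

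M-CSF acts through a receptor tyrosine kinase encoded by Csf1r and turns bone marrow progenitors into adherent macrophages. Macrophages take up particles, dying cells and microbes through surface receptors and break them down in lysosomes by acid hydrolases. In the body they take on programmes of the organ they live in, such as the GATA6 programme of large peritoneal macrophages or the PPARγ programme of alveolar macrophages.

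Each array was an Illumina mouse whole-genome bead array with 45281 probes, of which 34885 were paired with 1 gene symbol, 18 with several and 10378 with none. These covered 19057 symbols. Values are the deposited intensities in arbitrary units without background subtraction, and a pair of values is always array 1 and then array 2. The detection p of a probe is the share of the array's negative controls that were at least as bright, and a detected probe had a p under 0.05. A symbol counted as detected on both arrays where 1 probe or more passed on both, and its brightest such probe stands for it. Undetected probes had median intensities of 90.0 on array 1 and 91.7 on array 2, and the dimmest detected probes reached 98.6 and 100.2, so that values under about 100 cannot be told from background. The brightest probes reached 26136 and 26892. Brightness also depends on the sequence of a probe, so the order of genes below is an order of probe brightness and not of transcript numbers.

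The label was first set against macrophage markers. A macrophage identity list was detected almost throughout: 22 of its 23 measured members were found on both arrays, against 8582 of all 19057 symbols (45%). The list also holds lysosomal genes such as Lamp1, Lamp2, Cd63 and Lgmn, which do not mark macrophages alone. Lyz2, which encodes lysozyme M, had intensities of 18663 on array 1 and 20773 on array 2. Adgre1, which encodes the F4/80 antigen, had 4056 and 3305. Csf1r, the M-CSF receptor, had 3065 and 3156. All 3 genes thus stood far above background on both arrays, and all of their 8 probes were detected. Fcer1g, the signalling chain of activating Fc receptors, was brightest in the list with 21027 and 22873, and Lgals3 (galectin 3) had 11810.4 and 14568. Trem2, a lipid-sensing receptor, had 10428 and 10634, and its adaptor Tyrobp had 7374 and 7849.7. Dim members were Itgam, the CD11b integrin chain, with 186 and 234, Msr1 with 189.7 and 183, and Ptprc, the pan-leukocyte phosphatase CD45, with 163 and 146. Cd36, a scavenger and fatty acid receptor, was the member not detected, with 93.8 and 88.7 on its 1 probe. The median over the 22 detected members was 4077, beside 266 over all symbols detected on both arrays. No probe was paired with the symbol Cd68 in the table used here. In such bulk samples, few cells of a type and little RNA per cell cannot be told apart.

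The promoters of Lyz2 and its neighbour Lyz1, another lysozyme gene, are much alike. The 130 bases before each transcription start are shown 5′ to 3′ from RefSeq (GRCm38.p6), at chr10:117282273-117282402 for Lyz2 and chr10:117292869-117292998 for Lyz1, both on the minus strand, and capitals mark the bases that differ. Of these 130 bases, 120 are equal (92.3%) and 10 differ.
Lyz2: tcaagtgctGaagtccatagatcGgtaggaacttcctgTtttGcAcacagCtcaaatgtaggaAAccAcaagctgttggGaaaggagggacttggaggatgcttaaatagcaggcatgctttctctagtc
Lyz1: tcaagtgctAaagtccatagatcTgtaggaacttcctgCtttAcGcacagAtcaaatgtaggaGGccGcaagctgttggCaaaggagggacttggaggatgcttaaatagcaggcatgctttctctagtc
Lyz1, the Paneth cell lysozyme, had intensities of 17222 and 19224 on its brightest probe, close to those of Lyz2. Its other probes had 246 and 286, and 134 and 119. Probes of close gene copies can bind RNA of the other gene. The bases shown lie before the start and are not in the RNA, so they do not bear on probe binding. Shared binding was not tested, because no probe or transcript sequences were compared.

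Ribosomal genes and members of the lysosomal lists made up a large share of the brightest genes. Among the 30 brightest symbols, 10 encode cytosolic ribosomal proteins and 5 belong to the lysosomal lists, namely Cstb, Psap, Lyz2, Lyz1 and Cd63. These lists count inhibitors of cathepsins, such as Cstb, and do not hold Laptm5. Itm2b, a membrane protein processed in the secretory pathway, led with 22113 and 25662 on its brightest probe. Of its 4 probes 2 were detected on both arrays, the dimmer of these with 3978 and 3518. Gpx1, a glutathione peroxidase that removes hydrogen peroxide, followed with 23327 and 23271, and Cstb, the cathepsin inhibitor cystatin B, with 21177 and 24103. The lowest of the 30 was Cd63, a tetraspanin of late endosomes, with 15844 and 17295, so the 30 lie within a narrow span near the top of the scale.

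**Figure D1:**
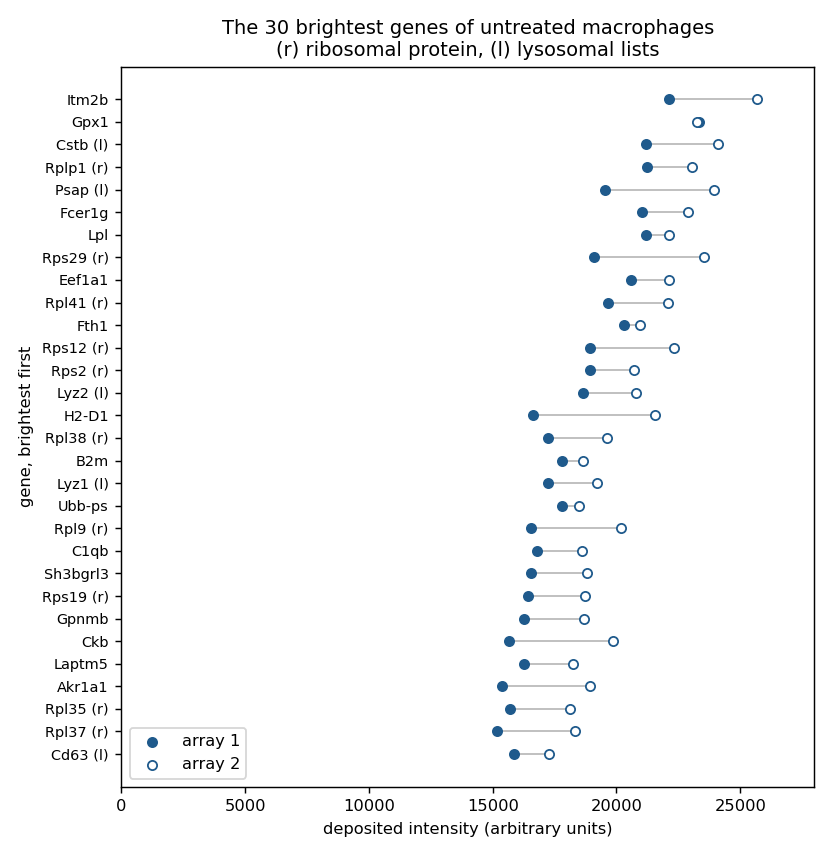
Deposited intensity (arbitrary units, linear axis from 0) of the 30 brightest symbols detected on both arrays of untreated macrophages, brightest first, with array 1 as filled and array 2 as open circles. The symbols run down to Cd63 at 15844 and 17295, and 10 of them are ribosomal (r) and 5 are members of the lysosomal lists (l).

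The macrophage-related members of this group have distinct roles. Psap, the precursor of the saposins that help degrade sphingolipids, had 19551 and 23936. Lpl, the lipoprotein lipase that frees fatty acids from lipoproteins, had 21204 and 22130.1. Fth1, the heavy chain of the iron store ferritin, had 20322 and 20962. These genes gave signals as bright as ribosomal genes such as Rplp1, which had 21249 and 23056. C1qb, a chain of the first complement component, had 16801 and 18610.0, Gpnmb, a glycoprotein of lysosome-rich cells, 16284 and 18688, and Laptm5, a lysosomal membrane protein of blood cells, 16249.8 and 18232. H2-D1 and B2m, which form a class I molecule, had 16628 and 21569.7 for H2-D1 and 17801 and 18634 for B2m. The other non-ribosomal members were Eef1a1, Ubb-ps, Sh3bgrl3, Ckb and Akr1a1, at intensities of 15394 to 22120.0. Ubb-ps is a pseudogene close to the ubiquitin gene Ubb, which has no probe paired with the symbol in the table used here, and the H2 genes are also near copies, so their signals may be shared. Among the 100 brightest symbols 28 were core ribosomal genes and 10 members of the lysosomal lists, and among the 200 brightest 36 and 18. Of the 100 brightest probes, 41 were not paired with 1 symbol and remain unnamed.

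Detection was spread over a wide range of brightness. Of all 45281 probes, 15155 (33.5%) were detected on both arrays, among them 1996 without 1 symbol. Of the symbols, 1228 (6.44%) were detected on 1 array and 9247 (48.5%) on neither. For 7266 of the 8582 (84.7%) no negative control was as bright on either array, a mark already reached at intensities near 120. The detected symbols were mostly dim: 1465 (17.1%) had a mean intensity up to 120, 2003 (23.3%) above 120 up to 200, 3633 (42.3%) above 200 up to 1000, and 1251 (14.6%) above 1000 up to 5000. Above 5000 up to 10000 there were 137 (1.60%), and above 10000 there were 93 (1.08%). Protein-coding genes were detected more often, 8455 of 18400 (46.0%), than long noncoding RNAs, 76 of 453 (16.8%), which is a count and was not tested.

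The 2 arrays ranked probes alike. On the normalized log2 scale, Pearson's r between them was 0.994 across all probes and 0.992 across the 8582 detected symbols. These are correlations across genes, which are not independent replicates, over 2 samples. The median absolute log2 difference was 0.15 and the SD of the differences 0.26. It was 0.16 for symbols up to an intensity of 120, 0.19 from 120 to 200, 0.14 from 200 to 1000 and 0.08 above 10000, so the bright genes repeated most closely.

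**Figure D2:**
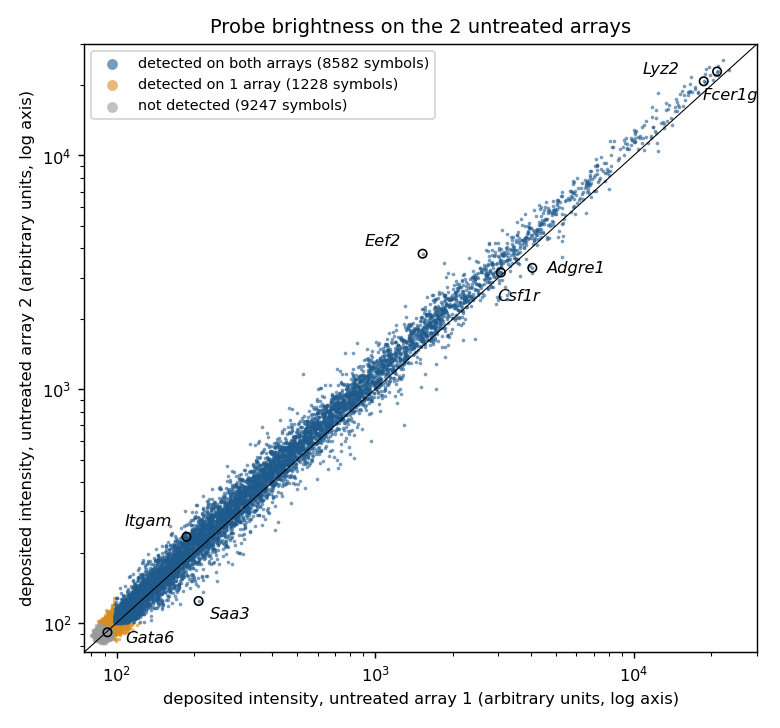
Deposited intensity of 19057 symbols on array 1 (x) and array 2 (y) of untreated macrophages, in arbitrary units on log axes, coloured by detection, with the line of equal values. Lyz2 and Fcer1g lie near the top, Adgre1 and Csf1r at 3065 to 4056, Gata6 at background, and Eef2 and Saa3 away from the line.

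A small number of genes differed between the 2 arrays. Over 2-fold differences on the normalized scale were found for 32 of the 8582 detected symbols (0.373%), 28 lower and 4 higher on array 2. On uncorrected intensity there were 2, and 2 also on the authors' normalized values. Saa3, an acute-phase apolipoprotein induced by inflammatory signals, had 208 on array 1 and 124 on array 2, a normalized log2 difference (array 2 minus array 1) of -1.61 or 3.05-fold, and of -0.74 on uncorrected intensity and -0.85 on the authors' normalized values, both under 2-fold. Eef2, the translation elongation factor that moves the ribosome along, had 1527 and 3799, a difference of 1.15, and its other probes were also higher on array 2, with 742 and 1515 and with 1114 and 2763. The mitochondrial gene COX2 had 1297 and 706, a difference of -1.16. Besides Eef2, the other 9 of the 10 largest differences were all lower on array 2, namely those of Saa3, Ptpra, Vapa, Snx5, Marchf8, Alyref2, COX2, Adam9 and Trim30a. With 1 value on each side no test could be made, and culture, RNA and array cannot be told apart as sources of these differences. The probes of a gene could also disagree: the dimmest probe of Adgre1 had 790 and 1642 while its other probes were lower on array 2, and the dimmer probe of Csf1r had 1297 and 2364.

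Receptors for growth factors and cytokines were mostly detected, 17 of 22 measured (77.3%), beside 45% of all symbols. Besides Csf1r, the receptor for GM-CSF was present with its ligand-binding chain Csf2ra at 1919 and 3131 and its signalling chain Csf2rb at 159.6 and 196. The TGF-β receptor genes Tgfbr1, with 3017 and 3932, and Tgfbr2, with 2046 and 2495, were about as bright as Csf1r and Csf2ra. The receptor chain for interferon-γ, Ifngr1, had 1314 and 1586, and Il10ra, the IL-10 receptor, had 1073 and 1185. Not detected on either array were Flt3, the receptor of early progenitors, Il4ra, the IL-4 receptor chain, with 90.3 and 91.3, and Ifnar1, a chain of the type I interferon receptor, with 87.3 and 84.6. Of 18 growth factor genes measured, 10 were detected (55.6%), a share near the 45% of all symbols. Grn, the lysosomal growth factor progranulin, had 12177 and 15730.1, and Igf1, insulin-like growth factor 1, had 7073 and 9040.0. Tgfb1 had 1183 and 1688, and Pdgfb, a platelet-derived growth factor chain, had 865 and 1070.5. The ligands of the M-CSF receptor themselves were not detected, with 94.8 and 93.6 for Csf1 and 90.9 and 93.2 for Il34, and neither was the GM-CSF gene Csf2.

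A list of myeloid transcription factors was detected for 25 of 27 measured (92.6%), beside 45% of all symbols. The list also holds Rela, Stat3, Stat6, Fos, Junb and Klf6, which do not mark the myeloid lineage alone. Spi1, which encodes PU.1, the master regulator of macrophages, had 505 and 632. Brighter were Cebpb, with 2677 and 3932, the zinc finger factor Klf6, with 2828 and 3941, the NF-κB subunit Rela, with 1805 and 2093, and Irf5, with 1567 and 2048. Dim ones included Cebpa (184 and 300.4), Runx1 (181 and 199.6), Maf (124 and 115), Mitf (125 and 126) and Tfeb (108 and 111), the last a regulator of lysosomal genes. Tfec and Bhlhe41 were not detected. The median of the 25 was 417, beside 266 over all detected symbols.

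Nuclear receptors, the ligand-gated factors that include the receptors of retinoic acid, were detected for 14 of 43 measured (32.6%), beside 45% of all symbols. Pparg, a fatty acid sensor and regulator of alveolar macrophages, was the brightest with 1441 and 2015. Next came Ppard with 629.6 and 813, Rxrb with 579 and 626, Esrra with 592 and 618 and the oxysterol receptor Nr1h3 (LXRα) with 519 and 606. Of the retinoic acid receptors, Rarg was dim with 120.3 and 150.5, Rara had 99.5 and 96.9 and was detected on array 1 alone, and Rarb, itself a target of retinoic acid, was not detected with 91.5 and 99.2. Their partner Rxra had 108 and 113. The glucocorticoid receptor gene Nr3c1, used by macrophages, was not detected with 88.2 and 97.4 on its 1 probe.

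Lysosomal genes were detected almost throughout. All 25 measured hydrolases, 20 of 21 membrane and proton pump genes and 15 of 17 cathepsin genes and their inhibitors passed on both arrays, 60 of 63 different symbols together. The median of the 60 was 1864, beside 266 over all detected symbols. Among the proteases, Ctsb (cathepsin B) had 13374 and 16704, Ctsa 10158 and 11870.0, and Lgmn (legumain) 8163 and 10051. The inhibitor Cst3 (cystatin C) had 14467 and 15436. Ctsd and Ctsl, which encode cathepsins D and L, were dim on their probes, with 222 and 219 for Ctsd and 147 and 154 for Ctsl. Among the hydrolases beyond Psap and the lysozymes, Man2b1, an α-mannosidase, had 8279 and 10864, Gusb, β-glucuronidase, 7508 and 9856, and Asah1, acid ceramidase, 7966 and 8558. Of the membrane proteins, Lamp1 had 10567 and 12129 and Lamp2 5338 and 5133, and the proton pump accessory subunit Atp6ap1 had 7036 and 8103. Not detected were Ctso, Ctsw (a cathepsin of cytotoxic lymphocytes) and Atp6v0d2, a pump subunit of osteoclasts and alveolar macrophages, with 90.3 and 90.9.

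Many lysosomal genes carry a CACGTG-containing element that the factor TFEB binds in mammals. The letters GTCACGTG, searched on both strands in the window of 250 bases before to 50 after each start, were found in 9 of 50 lysosomal promoters (18%), beside 630 of 27025 promoters in the RefSeq table (2.33%) and 341 of 7068 promoters of detected symbols (4.82%). By list these were 4 of 23 hydrolases, 4 of 15 membrane and pump genes and 1 of 12 cathepsins. The 4 brightest of the 9 genes are shown because they let the element be compared across promoters, with 40 bases around it in RefSeq letters (GRCm38.p6), 5′ to 3′ along the gene's strand, and the element in capitals on either strand. They lie at chr8:13159117-13159156 (plus strand) for Lamp1, chr4:117887344-117887383 (minus) for Atp6v0b, chr8:105566046-105566085 (minus) for Atp6v0d1 and chr9:114401012-114401051 (plus) for Glb1.
Lamp1: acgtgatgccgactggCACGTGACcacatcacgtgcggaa
Atp6v0b: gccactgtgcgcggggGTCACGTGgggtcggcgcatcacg
Atp6v0d1: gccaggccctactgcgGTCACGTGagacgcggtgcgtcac
Glb1: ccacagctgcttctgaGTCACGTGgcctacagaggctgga
The element began 28 bases before the start in Lamp1, 38 in Atp6v0b, 5 in Atp6v0d1 and 50 in Glb1. These genes had intensities of 2578 and 3184 for Atp6v0b, 2504 and 3131 for Atp6v0d1, and 1181 and 1204 for Glb1 (β-galactosidase), beside Lamp1 above. The other 5, Arsa, Naglu, Mcoln1, Ctsd and Gla, were dimmer, down to 141 and 164 for Gla. A match of letters is not a bound site, and binding was not measured.

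Receptors for particles and microbes were detected at shares of 63.6% to 78.9% by list, beside 45% of all symbols. Of 11 Fc receptor genes 7 were detected: Fcgr3, an activating receptor for IgG, had 4581 and 5332, Fcgr4 had 2299 and 2604, Fcgr1 748 and 795, and the inhibitory Fcgr2b 876 and 822. The neonatal Fc receptor Fcgrt, which recycles IgG, had 4187 and 4391. Toll-like receptors and their partners were detected for 13 of 18. Tlr13, a sensor of bacterial ribosomal RNA, had 1798 and 2105, Tlr2, for lipopeptides, 1468 and 1792, and Tlr7, for single-stranded RNA, 1306 and 1342. Tlr4, which senses lipopolysaccharide, had 545 and 565, while its co-receptors were brighter, with 4335 and 5046 for Cd14 and 1120.3 and 1281 for Ly96. Unc93b1, which carries nucleic acid sensing receptors to endosomes, had 6088 and 7260.2. Not detected were Tlr3, Tlr5, Tlr11 and Tlr12, and Tlr9 was detected on array 2 alone. Of 19 other pattern recognition genes 15 were detected, led by the lectin Clec4d with 6608 and 7000.2 and the inflammasome protease Casp1 with 5390.4 and 5337, while Nlrp3 was detected on array 2 alone.

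Genes for the uptake of dying cells were detected for 14 of 19 (73.7%), and scavenger receptors for 11 of 18 (61.1%), beside 45% of all symbols. Mfge8, a bridge between phosphatidylserine and integrins, had 6496 and 7283, and Gas6, the bridge to the TAM receptors, had 2721 and 3412. Of these receptors, Axl had 801 and 856 and Mertk 549.7 and 595, and Tyro3 was not detected with 92.0 and 88.6. Mrc1, the mannose receptor, had 2563 and 3243, and Stab1 1192 and 1346. The phosphatidylserine receptor Timd4, found on resident macrophages, had 94.2 and 101 and was detected on array 2 alone. Complement genes fell into bright and undetected ones, with 6 of 18 components (33.3%) detected. C1qb was given above, C1qc had 10046 and 12835, the alternative pathway factor properdin (Cfp) 9113 and 10849 and C1qa 1565 and 1971. C2 and C8b were near background. The other components measured, such as Cfb and Hc, were not detected on both arrays. No probe was paired with the symbol C3 in the table used here.

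Antigen presentation genes were detected at shares of 72.7% for class II and 87.5% for class I, beside 45% of all symbols. Of 11 class II genes 8 were detected: the invariant chain Cd74 had 11323 and 11258, H2-Ab1 6014 and 6239.8, H2-Eb1 2063 and 2078, H2-DMa, which loads peptide, 2183 and 2552, and H2-Aa 961 and 602. Ciita, the master regulator of the class, was dim with 272 and 266. The members not detected were H2-Oa and H2-Ob, which encode a molecule of B cells, and H2-Ea, with 91.7 and 90.9, a gene that mice of the b haplotype such as C57BL/6 do not transcribe. Of 16 class I genes 14 were detected. Costimulatory and inhibitory ligands were detected for 11 of 14, with Sirpa, which binds the "do not eat me" signal CD47, at 13286 and 15656, Cd274 (PD-L1) at 1007 and 1147, Cd86 at 331 and 417, Cd40 at 433 and 457 and Cd80 at 124 and 135.

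Chemokine and chemokine receptor genes were detected at shares near the 45% of all symbols. Of 20 CC chemokine genes 8 were detected, with Ccl9 far ahead at 11695 and 11828, followed by Ccl4 at 2475 and 3022, Ccl3 at 1625 on both arrays and Ccl6 at 529 and 508. Ccl2, the main attractant of monocytes, was not detected with 93.7 and 90.2, and neither were Ccl17, Ccl22 and Ccl24. Of 14 CXC and CX3C genes 6 were detected, and Cxcl16, a membrane-bound scavenger receptor and chemokine, had 2019 and 2299.6. Chemokine and formyl peptide receptors were detected for 8 of 20, at most Cxcr4 with 576 and 538. Inflammatory cytokines and enzymes were detected for 4 of 15: Tnf had 261 and 285, Osm 221 and 265, Il18 207 on both arrays and Il1b 131 and 118. Not detected were Il6 with 87.9 and 90.4, Nos2, the inducible nitric oxide synthase, with 92.7 and 97.3, and also Ptgs2, Il1a, Il23a and Ifnb1.

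Genes of alternative activation were detected for 9 of 17 (52.9%), near the 45% of all symbols, and those of the interferon response for 21 of 24 (87.5%). Arg1, the arginase of macrophages stimulated by IL-4, was not detected with 98.6 and 92.8, just under the limit on array 1, and Retnla was detected on array 2 alone with 90.4 and 106. Il10 had 153 and 163, Il1rn, the interleukin 1 receptor antagonist, 139 and 172, and Chil3 182 and 166. Mrc1, which is also in this list, was its brightest member. Among interferon-induced genes, Irgm1, a GTPase against intracellular microbes, had 3182 and 2724, Gbp2 1015 and 1064, Ifit3 945 and 781 and Rsad2 721 and 674. Isg15 had 356 and 367, while Ifit1, Mx1 and Ifih1 were not detected. Mx1 is known to be defective in most laboratory mouse strains.

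Iron, lipid and energy genes were detected in large part, while integrins were nearer the overall share and dimmer. Integrins were detected for 13 of 25, with a median of 128 over those detected, and with Itgb5 at 1146 and 1126 and Itgb7 at 340.4 and 423 brighter than Itgb2, the partner of CD11b, at 258 and 207. Iron and haem genes were detected for 18 of 20. Besides Fth1, Ftl1 (ferritin light chain) had 14404 and 16079.9, the phagosomal metal transporter Slc11a1 10940.4 and 13553, and the biliverdin reductase Blvrb 9287 and 11257. The iron exporter Slc40a1 had 2427 and 2956, and the transferrin receptor Tfrc 783 and 950.0. Lipid genes were detected for 17 of 22, with Apoe at 6668 and 7303, the lipid droplet coat Plin2 at 2280.5 and 2495, and the cholesterol exporter Abcg1 at 551 and 583. The related exporter Abca1 was not detected with 91.4 and 90.0 on its 1 probe. Glycolysis genes were detected for 17 of 19, such as Pkm with 6759 and 8553 and Ldha with 4341 and 5896, and respiratory chain and ATP synthase genes for 81 of 91, led by Atp5b with 9307 and 11899.

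Cell cycle genes were detected for 25 of 30 (83.3%), beside 45% of all symbols, but most were dim. Their median was 175, beside 266 over all detected symbols, and 3 of them exceeded 1000: the inhibitors Cdkn1a (p21), with 1945 and 2411, and Cdkn1c (p57), with 1154 and 1419, and the G1 cyclin Ccnd1, with 1010.2 and 1599. The replication helicase subunit Mcm4 had 689 and 749. Mitotic genes were lower, with Birc5 at 216 and 257, Cdk1 at 184 and 200.4 and Top2a at 150.2 and 166, and Ccna2 was not detected with 88.2 and 92.9. No probe was paired with the symbol Mki67 in the table used here.

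**Figure D3:**
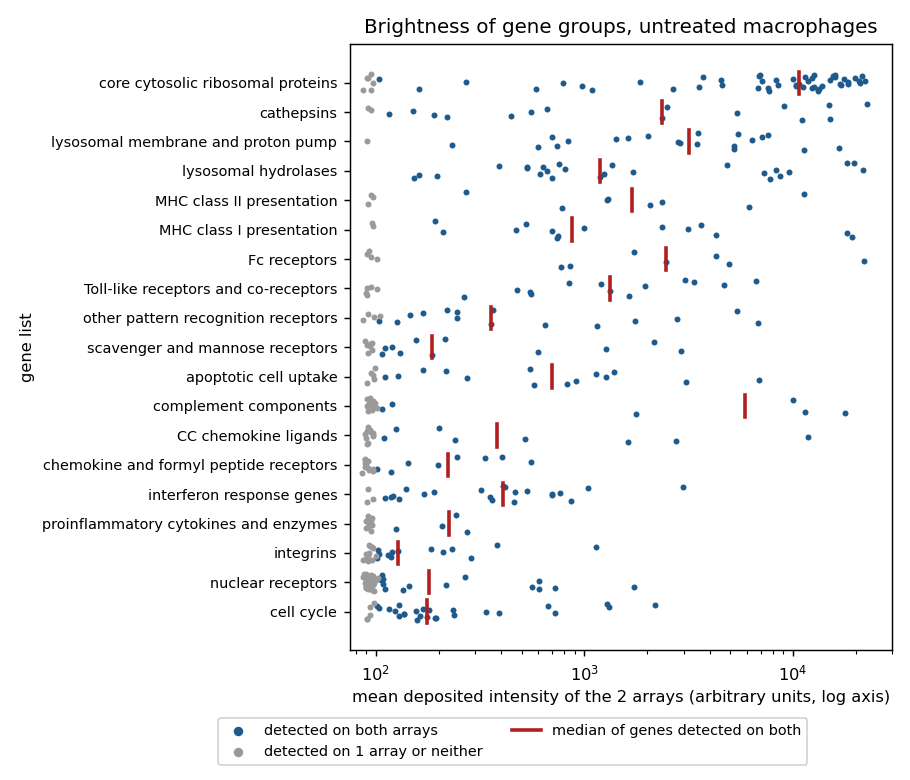
Mean deposited intensity of the 2 arrays (arbitrary units, log axis) for each measured gene of 19 lists in untreated macrophages, with genes detected on both arrays in blue, all others in grey, and a red bar at the median of the detected genes. Core ribosomal genes had the highest median at 10719, and lysosomal membrane and pump genes had 3171, while cell cycle genes had 175.

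The programmes of tissue macrophages were detected only in part. Over the 7 lists together 43 of 91 measured symbols (47.3%) were detected on both arrays, a share near the 45% of all symbols, and 37 were detected on neither. Of the regulators and markers in these lists, Gata6 (peritoneum), Siglecf (lung), Clec4f (liver) and Cd207 (skin) were detected on neither array. Pparg of the lung list, Sall1 of the brain list and Spic of the spleen list were detected on both. The share ran from 33.3% in the large peritoneal and Langerhans cell lists to 72.7% in the list of splenic red pulp macrophages.

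**Figure D4:**
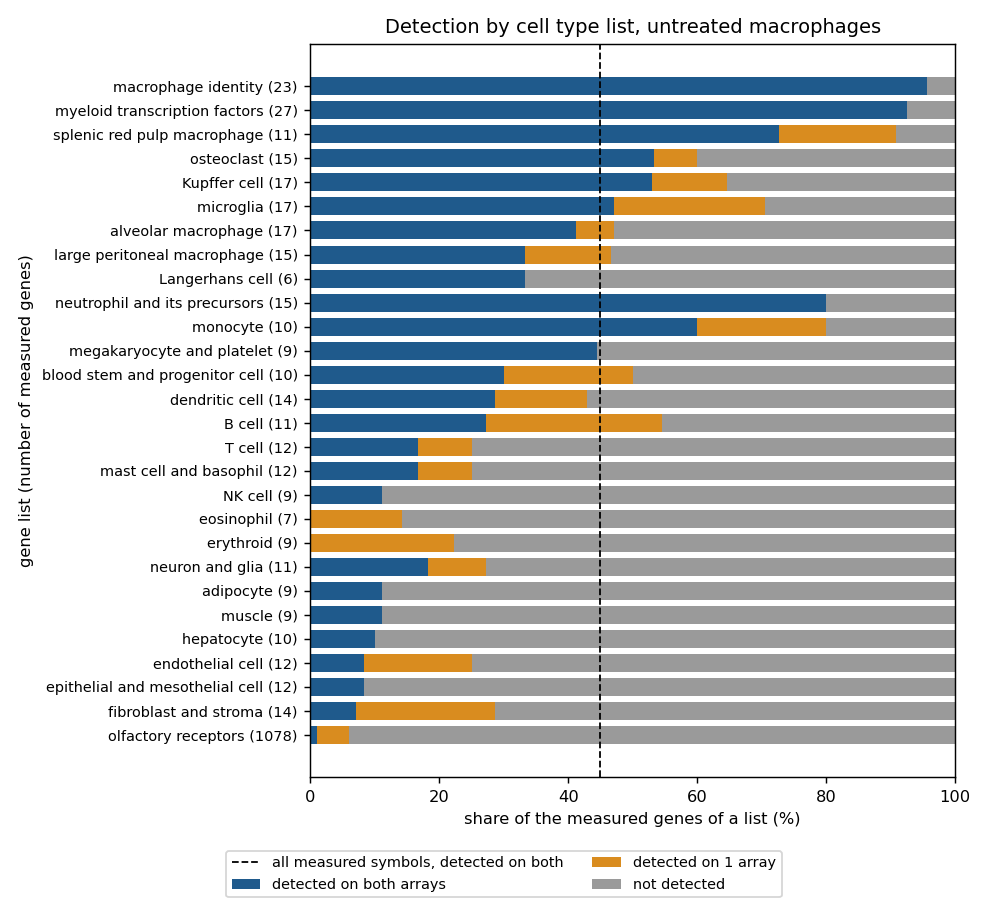
Share (%) of the measured genes of each cell type list that were detected on both arrays (blue), on 1 array (orange) or on neither (grey) in untreated macrophages, with the number measured in brackets and a dashed line at the 45% of all symbols. Macrophage identity and myeloid transcription factors lie above 90%, and eosinophil and erythroid lists have no gene detected on both arrays. Both lists above 90% also hold genes that do not mark macrophages alone.

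Of 15 large peritoneal macrophage genes, 5 were detected. Gata6, the factor that sets the peritoneal programme, had 92.2 and 91.1, and neither of its 2 probes was detected. Tgfb2 (96.4 and 94.3), Selp (96.7 and 96.5), Alox15 (84.6 and 90.8), F5, Serpinb2, Aspa and Bhlhe41 were likewise not detected. The 5 detected were Cd93, with 2991 and 4240.1, the clotting factor gene F10, with 344 and 394, Icam2, with 221 and 255, Garnl3, with 114 and 113, and Vsig4, with 106 and 111. The regulator was thus at background, while Cd93, also found on other myeloid cells, was bright. The 8 of 15 genes detected on neither array are a share near the 48.5% of all symbols.

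The alveolar list had 7 of 17 detected (41.2%), a share near the 45% of all symbols. Lpl and Pparg, described above, were bright, and Abcg1 and Fabp5 (297 and 272) were well above background. Lpl and Pparg are not particular to alveolar macrophages, and neither is in the adipocyte list used here. The surface lectin Siglecf (86.2 and 89.3), the carbonic anhydrase Car4 (89.0 and 96.3), the fatty acid carrier Fabp4 (90.4 and 90.2) and also Cidec, Krt79 and Plet1 were not detected. The integrin chain Itgax (CD11c) had 98.6 and 107 and the scavenger receptor Marco 108 and 105, both near the limit.

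Microglial genes were detected for 8 of 17 (47.1%), a share near the 45% of all symbols. Fcrls, an Fc receptor-like protein, had 1559 and 1909.7, Bin1 1277 and 1604, Mef2c 571 and 689 and the fractalkine receptor Cx3cr1 329 and 334. Sall1, the factor that keeps microglial identity, had 116 and 119 on 1 of 2 probes, close to background. Tmem119 (93.7 and 101), P2ry12 (101 and 92.9), Siglech and Sparc were each detected on 1 array alone, and Slc2a5, Olfml3, Crybb1, Adgrg1 and Sall3 on neither.

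Kupffer cell genes were detected for 9 of 17 and red pulp genes for 8 of 11, beside 45% of all symbols. Slc40a1, in both lists, was given above, the folate receptor Folr2 had 2056 and 2224 and the lectin Fcna (ficolin A) 612 and 691. Clec4f (90.3 and 89.9), the lectin that marks mouse Kupffer cells, and Cd5l (88.7 and 90.6) were not detected. Of the red pulp genes, the haem oxygenase Hmox1 had 1811 and 2586, Hpgd, which inactivates prostaglandins, 417 and 439.6, Siglec1 222 and 235, and Spic, the factor of iron-recycling macrophages, 141 and 146. Langerhans cell genes were detected for 2 of 6, or 1 at the limit of 0.01, and Cd207 and Epcam were not among them.

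Osteoclasts arise from the same precursors under M-CSF and RANKL. Of their genes 8 of 15 (53.3%) were detected, a share near the 45% of all symbols. The proton pump subunit Tcirg1, shared with lysosomes, had 3011 and 4013, the receptor of RANKL, Tnfrsf11a, 224 and 301, the protease Ctsk 514 and 599 and the fusion protein gene Dcstamp 179.9 and 164. Acp5 (99.8 and 96.4) was detected on array 1 alone, and Calcr, Oscar, Ocstamp, Itgb3, Car2 and Atp6v0d2 were not detected.

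Markers of other cells of the marrow were looked at because such cells could remain in the culture. Neutrophil genes were detected for 12 of 15 (80%), beside 45% of all symbols, and 11 of them at the stricter limit of 0.01. S100a8, an abundant neutrophil protein that monocytes also make, had 1052 and 986, S100a9 364 and 263, the receptor of G-CSF, Csf3r, 301 and 367, and myeloperoxidase (Mpo) 233 and 228. Of other granule genes, Ltf had 174 and 144, Elane 145 and 132 and Camp 110.4 and 113, and the median of the 12 detected was 149. Cxcr2, Mmp8 and Retnlg, markers of mature neutrophils, were not detected, and no probe was paired with the symbol Ly6g in the table used here. Monocyte genes were detected for 6 of 10 (60%), such as Ccr2 at 122 and 114 and Ly6c1 at 150.5 and 153. Fn1 was not detected on any of its 4 probes.

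Lymphoid, mast cell, eosinophil and erythroid genes were mostly not detected. B, T and NK cell lists had 6 of 32 symbols detected, and the T cell genes Cd3d, Cd3e, Cd3g, Cd4 and Cd8a and the B cell genes Ms4a1 and Pax5 were not among them. The 6 detected were the B cell genes Blnk (681 and 895), an adaptor that macrophages also use, Cd79b (142 and 134) and Ebf1 (104 and 102), the T cell genes Cd8b1 (789.9 and 919.6) and Cd28 (477 and 668), and Prf1 of NK cells (143 and 128). The B cell count was 3 on both arrays and 6 without array 1. Mast cell and basophil genes were detected for 2 of 12, or 1 at the limit of 0.01, and eosinophil and erythroid genes for 0 of 7 and 0 of 9, of which 1 and 2 were detected on 1 array. Dendritic cell genes were detected for 4 of 14, or 2 at the limit of 0.01, with Flt3, Xcr1 and Clec9a not detected on either array. Megakaryocyte and platelet genes were detected for 4 of 9, with the platelet chemokine Pf4, also made by macrophages, at 249 and 232. Of 10 stem and progenitor genes, 3 were detected (5 counting array 1 without array 2), with Kit at 105 and 114. Factors of other lineages were detected for 6 of 20, beside 45% of all symbols. The brightest was Lmo2, a partner of SCL that myeloid cells also use, with 4439 and 5309. Tcf4 had 1499 and 1536, Foxp3 832 and 963 on 1 of its 4 probes and Tal1 128 and 138, and Ebf1 and Cebpe were near the limit. Gata1, Gata2, Gata3 and Pax5 were not detected.

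Genes of cells outside the blood were near the background of the array. Over 7 lists, of fibroblasts, endothelial, epithelial and mesothelial cells, adipocytes, hepatocytes, neurons and glia, and muscle, 8 of 77 symbols (10.4%) were detected on both arrays, 4 of them at the limit of 0.01. The collagen gene Col1a1 had 91.8 on both arrays. Among the 8, Acta2, smooth muscle actin, had 264 and 213, Syn1 472 and 582 and Mbp 639 and 828, and the other 5, Egfl7, Cdh1, Lipe, Apoa2 and Des, had intensities of 98.7 to 111. Olfactory receptor genes, which these cells are not known to use, serve as a scale: 11 of 1078 (1.02%) were detected on both arrays, with mean intensities of at most 123, 2 at the limit of 0.01, and 39 passed on array 1 and 36 on array 2. Vomeronasal receptors were detected for 0 of 173 (2 that passed on array 1 and 7 on array 2) and keratin associated proteins for 0 of 42 (1 on each array). Hox genes, which pattern the embryo and early progenitors, were detected for 2 of 38, while 5 passed on array 1 and 6 on array 2.

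A gene not detected is not shown to be silent. Among 16 reference genes that all cells use 15 were detected, and Sdha, a subunit of succinate dehydrogenase, was not, with 85.6 and 94.0 on its 1 probe. Core ribosomal proteins were detected for 49 of 55 and the proteasome for 25 of 31, and Rpsa, Rps20 and Psma1 were among those that were not. The chaperone gene Canx had 97.4 and 93.8. Of the 9172 symbols with more than 1 probe, 3359 (36.6%) had some probes detected on both arrays and others not. The statements on genes not detected are therefore about these probes.

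The promoters of detected and undetected genes differed in CpG content, a measure that played no part in detection. The observed over expected CpG ratio is the number of CG pairs divided by the number that the C and G content of the window would give. Its median was 0.778 over 7068 promoters of symbols detected on both arrays, 0.603 over 946 detected on 1 array and 0.340 over 7223 not detected. Without olfactory, vomeronasal and keratin associated genes it was 0.420 over 6187 of those not detected. Macrophage lists had lower medians than all detected symbols. The median was 0.325 over 18 macrophage identity promoters, 0.235 over 11 Fc receptor promoters and 0.166 over 7 class II promoters, against 0.870 over 45 core ribosomal promoters. These sets hold list members whether detected or not, and 7 of the 11 Fc receptor genes were detected on both arrays. The letters GAGGAAG, which hold the GGAA core that PU.1 and other ETS factors bind, were found on either strand in 6 of the 18 identity promoters (33.3%) and 5 of the 11 Fc receptor promoters (45.5%), beside 13.5% of all 27025. They were in 0 of 7 class II promoters, 15.8% of 19 interferon response promoters and 13.3% of 15 lysosomal membrane and pump promoters. They were also in 33.3% of 12 promoters of cathepsins and their inhibitors and 21.7% of 23 lysosomal hydrolase promoters. TATAAA was in 7.16% of promoters of detected symbols, 17.8% of those not detected (13.7% without the receptor and keratin associated genes), 14.2% of all, and 19.5% of 77 promoters among the 100 brightest symbols. These shares are descriptions of a 300 base window and were not tested.

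**Figure D5:**
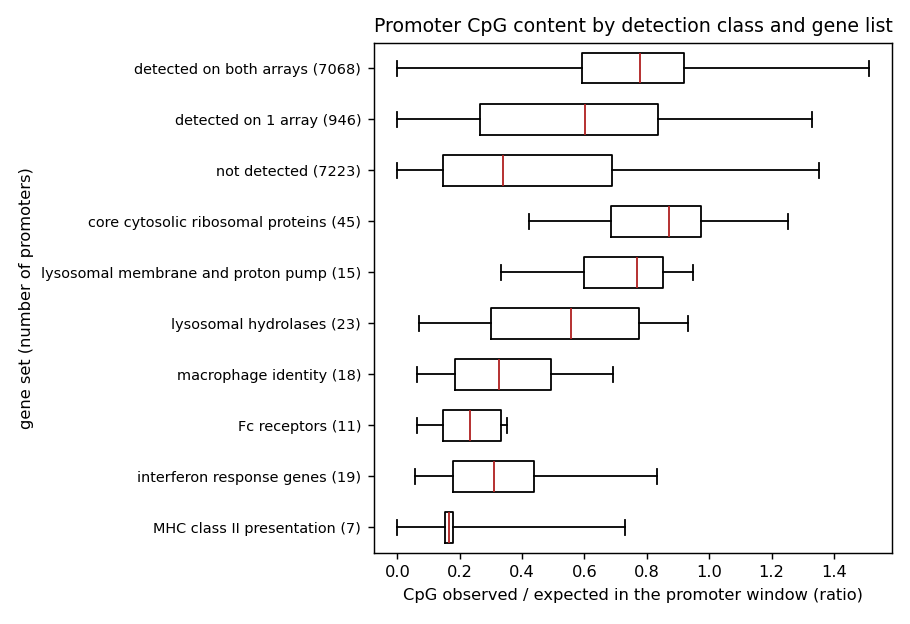
Observed over expected CpG ratio in the 300 base promoter window by detection class and gene list in untreated macrophages, with the number of promoters in brackets, boxes from the lower to the upper quartile, red lines at medians and whiskers to the lowest and highest values. Symbols detected on both arrays have a median of 0.778 and those not detected 0.340, and macrophage identity genes have 0.325.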

How the data were processed

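RNA of the untreated macrophages was measured on 1-colour Illumina bead arrays, with columnar purification under DNase and biotin-labelled amplified RNA, per the labels' protocols. The authors' deposited table gave a linear intensity per probe and array without background subtraction, as its values show, and, per the file headers, a detection p-value per array. For the scanning and processing software, the name was not given in the sources used here. A deposited matrix of the authors' normalized intensity was used only as an alternative.

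Intensities were corrected and quantile normalized with neqc (limma 3.58.1, R 4.3.3, offset of 16), which infers background from the detection p-values, over the 8 arrays, and put on the log2 scale. The log2 values ranked genes and gave differences between arrays, while the text prints the authors' deposited intensity. The steps of the detection p fit 936 negative controls. The procedure was tested on simulated data that held no signals close to background, so detection of the dimmest genes was not tested. Empty lines, 1348 in all, were left out.

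Symbols came from the platform's probe annotation, which can be old. Promoters were the first RefSeq entry of a symbol. Named were the 30 brightest symbols, members of the gene lists, and the 10 largest differences between arrays. The lists and the choice of arrays were made with earlier results of these data known, and the core ribosomal and proteasome lists were trimmed after counts were seen. With 2 arrays of 1 group there was no test. The number of arrays limits the precision. Alternatives were a detection limit of 0.01, each array alone, the brightest probe only, neqc on the 2 arrays, uncorrected intensity, the authors' normalized values and no filter.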

Additional observations from a re-analysis of the deposited data

How the results depend on the processing

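No paired analysis was possible because the results come from no test and from 1 group. The count of 8582 symbols detected on both arrays was 7878 at a detection limit of 0.01 and 8577 with the brightest probe only, and leaving out 1 array gave 9160 to 9263. Of probes, 15155 were detected on both arrays, 13454 at the limit of 0.01, and 16262 to 16784 on a single array. The lists of named genes, without families collected by the start of their symbols such as olfactory receptors, held 786 measured symbols. Of these 438 were detected, beside 45% of all symbols, with 417 at the limit of 0.01 and 461 to 469 on a single array. Of 198 list counts under these alternatives 24 moved by over 1.5 times, all in lists with at most 11 genes detected. All 30 brightest symbols stayed among the 30 brightest with neqc on the 2 arrays, on uncorrected intensity, on the authors' normalized values and without the filter, and 29 did with either array left out, with a worst rank of 32. The 32 symbols past 2-fold between arrays were also 32 with neqc on the 2 arrays and 36 without the filter, but 2 on uncorrected intensity and 2 on the authors' normalized values. The uncorrected intensity has no background subtraction by construction. For the authors' values the cause was not tested. Signal near background limits every statement on genes under about 120.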

Other observations

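Some genes known for other cells were bright on 1 probe while their other probes stayed at background, and these values were picked out after they were seen. Foxp3, the factor of regulatory T cells, had 832 and 963 on 1 of 4 probes, and the others had 87.9 to 99.2. Cd8b1, a T cell co-receptor chain, had 790 and 920 on 1 of 3 probes, beside 88.7 to 94.4 on the others. Vwf, the platelet and endothelial adhesion protein, had 706 and 859 on 1 of 2 probes, and the other was not detected. Mbp, a myelin protein gene, had 639 and 828 on its brightest probe, 115 and 145 on another, and none of its 3 remaining probes passed on both arrays. Cd28 had 477 and 668 on its 1 probe, and Syn1 was detected on both of its probes. Whether these probes bind transcripts of other genes was not tested.

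Nnt, the mitochondrial transhydrogenase gene that is known to be deleted in part in the C57BL/6J substrain, was not detected on any of its 8 probes, whose lowest detection p was 0.154. The labels give the strain without the substrain. Of the sex-linked genes, the Y-linked Eif2s3y had 329 and 278 on 1 of its 2 probes, and the other was not detected with 96.0 and 97.8. The Y-linked Kdm5d had 123 and 110.4 and Uty 105 and 111, while Xist was not detected on any of its 4 probes. The labels give no sex.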
